A study of Ovis aries with 4 samples.

Results

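Between 4 sheep conceptuses of the same day of pregnancy, 74 genes differed at least 4 times in level without following PTGS2, the inducible cyclooxygenase. They were chosen from a table of 25197 features by a fixed arithmetic rule on RPKM, a read density scaled by transcript length and library size. A gene needed a symbol that is not a numbered copy, a mean of at least 5 RPKM, and a highest conceptus at least 4 times the lowest. It also needed a Pearson r under 0.95 with PTGS2 over the 4 conceptuses, on log2(RPKM + 1). Of 5364 genes with a symbol and that mean, 81 (1.51%) spanned 4 times or more, and 74 (1.38%) also met the limit on r. The rule used all 4 values of every gene, so levels, ratios and r are given as descriptions, with no test.

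A conceptus is the embryo together with its extraembryonic membranes, and in the sheep on day 14 trophectoderm makes up most of this lengthening thread of tissue. The 4 libraries, called conceptus 1 to 4, form 1 group: day 14 conceptuses, each from a different Columbia and Rambouillet crossbred ewe, washed out of the uterus, frozen and sequenced after ribosomal RNA depletion. No treatment, sex, size or litter is given in the labels, and the number of cells behind each library is not stated. Each library is 1 animal, so a difference between libraries joins biology, recovery and library preparation, and these cannot be told apart.

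By this stage the trophectoderm secretes interferon tau, the signal that keeps the corpus luteum alive, and makes prostaglandins, which act on the endometrium and on the conceptus itself. Interferon also switches on antiviral genes through STAT proteins in cells that carry its receptor. Trophoblast transcription factors such as HAND1 and TBX3 belong to the placental programme, as known mainly from mouse.

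The labelled tissue fitted its markers in part. The trophectoderm keratin KRT8 was at 5756, 5847, 4983 and 8256 RPKM across the 4 libraries, in the order 1 to 4, while CDX2 and GATA3 averaged 11.9 and 29.3 RPKM. APOA1, an apolipoprotein of yolk sac endoderm, averaged 296 RPKM, while AFP and TTR were under 1.1 RPKM in each library. Of the defining leukocyte markers, PTPRC, CD14 and CSF1R did not exceed 0.05 RPKM in a library and CD3E lay at 0.17 to 0.38, while AIF1 of the wider leukocyte list averaged 15.9 RPKM and that list summed to 14.2 to 25.3 RPKM. CDH5 of endothelium was at 0.02 RPKM or less. Of the endometrial markers PGR was listed at 0 in all 4 and ESR1 was at 0.04 to 0.93 RPKM, while the wider endometrial list summed to 262 to 533 RPKM, with FXYD4 at a mean of 214 and LGALS15 at 89.0 RPKM, the second also in the trophoblast list. Summed RPKM of the libraries ran from 454387 to 522308. Absolute depth is unknown. Relative to conceptus 1, ratios of features above 0 in only a pair of libraries gave a depth of 0.741 for conceptus 2, 1.01 for conceptus 3 and 0.661 for conceptus 4. These are rough, since 12.6% to 30.9% of such features lay within 0.02 of the commonest log2 ratio.

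Most of the 74 genes were of modest level. Their mean ran from 5.05 to 259 RPKM with a median of 9.22, against a median of 16.5 RPKM over all 5364 genes. The genes at 5 to 10 RPKM held 38 of the 74, or 2.39% of the 1587 genes of that level, and the share was 0.871% of the 459 genes at 100 RPKM or more. The median ratio of highest to lowest was 4.85 in the 74 genes, by selection, and 1.57 over all 5364. Only 8 of the 74 reached 10 times, and 40 lay under 5 times. None had a value of 0, and 3 had a lowest value under 1 RPKM. The lowest value was under 5 RPKM in 55 of the 74, against 679 of all 5364. Just inside the limit of 4 stood NDUFB1 at 4.01, MORN1 at 4.02 and RIPK4 at 4.06, and just outside it KCNMB4 at 3.996, TMA7 at 3.97 and CITED1 at 3.96. At the limit on the mean, SSNA1 (5.05 RPKM), ENPP3 (5.08) and SNX24 (5.22) lay just inside, and PFN2 (4.90), TTYH3 (4.89) and SLC7A4 (4.88), which also spanned 4 times, just outside.

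**Figure D1:**
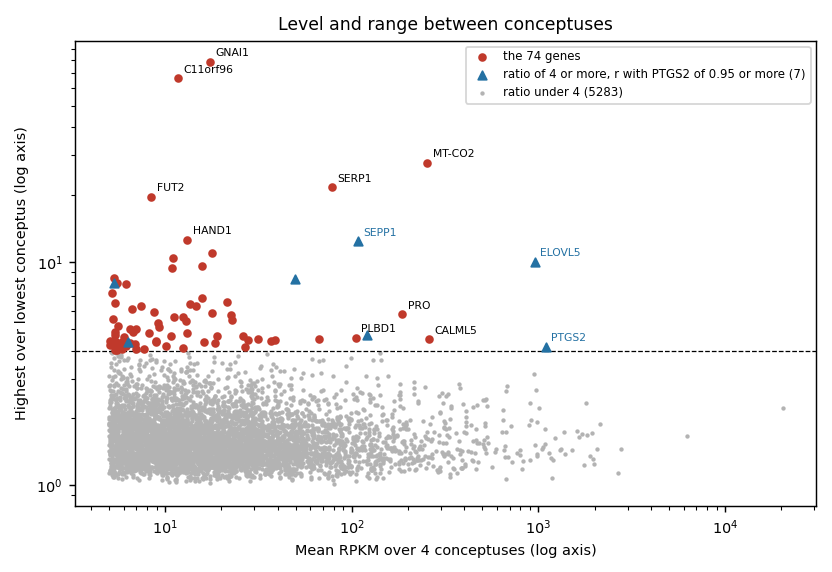
Mean RPKM (x, log axis) against the ratio of the highest to the lowest conceptus (y, log axis) for the 5364 genes with a symbol and a mean of at least 5 RPKM. Red points are the 74 genes, blue triangles the 7 genes that span 4 times or more with r of 0.95 or more with PTGS2, grey points the others. GNAI1 and C11orf96 lie highest, at 78.5 and 66.3 times, and MT-CO2 and SERP1 combine a wide range with means of 254 and 78.4 RPKM.

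PTGS2 itself had values of 473, 507, 1968 and 1424 RPKM, low in conceptuses 1 and 2 and high in conceptuses 3 and 4. The 6 other genes set aside with it were ELOVL5, SEPP1, IL17F, SLC35G1, SULT1E1 and SESN1, with r from 0.967 to 0.997, of which SEPP1, IL17F and SLC35G1 were the nearest to the limit. The largest r among the 74 were 0.926 for SNX24, 0.923 for NQO1 and 0.921 for TCAIM. In all, 31 of the 74 had a negative r with PTGS2, 32 lay between 0 and 0.8, and 11 lay at 0.8 or more. Over the 5364 genes, where r had no limit, 60% had a negative r and 6.84% an r of 0.8 or more. The rule kept r under 0.95 in the 74, so these shares are not like for like. The 11 genes at 0.8 or more still share part of the pattern of PTGS2.

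The member genes were most often low in conceptus 2. Its library held the lowest value of 43 of the 74 genes (58.1%), against 31.5% of all 5364 genes. Conceptuses 3, 4 and 1 held the lowest value of 17, 8 and 6 of the 74, against 31.3%, 20.1% and 17% of all. The highest value was in conceptus 1 for 26 of the 74 (33.5% of all genes) and in conceptus 4 for 23 (25.3% of all). It was in conceptus 3 for 17 (14.5% of all) and in conceptus 2 for 8 (26.7% of all). The limit on r had set aside 7 genes, mostly lowest in conceptus 1 and all highest in conceptus 3. With no such limit, 14.8% of 81 genes were lowest in conceptus 1 and 29.6% highest in conceptus 3. The typical gene of the 74 lay 0.94 under its own mean in conceptus 2 on the log2(RPKM + 1) scale, against 0.05 for the typical gene of all 5364 (medians of -0.94 and -0.05). The rough relative depth was also lower in conceptuses 2 and 4, at 0.741 and 0.661, and its part in these counts was not tested.

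**Figure D2:**
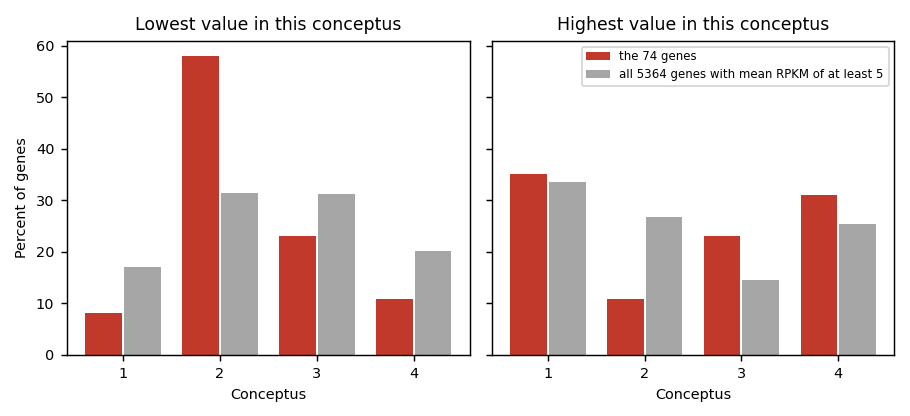
Percent of genes (y) with their lowest (left) or highest (right) value in each conceptus (x), for the 74 genes in red and all 5364 genes with a mean of at least 5 RPKM, which include them, in grey. The red bar of conceptus 2 reaches 58.1% on the left, where the grey bar is at 31.5%.

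Left out of the rule altogether, conceptus 2 took more genes with it than any other library: without it 29 genes met the rule and 27 of the 74 remained. Without conceptus 1, 3 or 4, 32, 42 and 46 of the 74 remained. When each gene's own highest value was left out, 27 of the 74 still spanned 4 times, and when its lowest was left out, 6 did. For 46 genes neither held, so that both ends of the range were needed.

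Each gene was also sorted by the widest gap between neighbouring values on the log2(RPKM + 1) scale. For 38 of the 74 a single conceptus lay below the gap, for 19 a single conceptus lay above it, and 17 split into pairs. Over all 5364 genes the same counts were 1718, 1715 and 1931. The commonest arrangement, with conceptus 2 alone below the gap, held 24 of the 74 genes and 11.5% of all 5364. Conceptuses 1 and 4 above the other pair came next with 12 genes, 16.2% of the 74, close to the 18.1% of all genes in the same arrangement. Conceptus 3 alone below held 9 genes (10% of all), conceptus 3 alone above held 7 (4.03% of all), conceptus 1 alone above 6 (10.4% of all) and conceptus 4 alone below 5 (5.54% of all). The remaining 11 genes fell to conceptus 2 alone above (4 genes, 11.5% of all), conceptuses 3 and 4 above (3 genes, 3.41% of all), conceptuses 1 and 3 above (2 genes, 1.03% of all) and conceptus 4 alone above (2 genes, 6.02% of all). The 7 genes set aside by the limit on r, PTGS2 among them, all had conceptuses 3 and 4 above the gap. No member split with conceptuses 1 and 2 above the other pair, the reverse of PTGS2, where 5.59% of all genes lie. Nor did any have conceptuses 2 and 3 (6.26% of all), conceptuses 2 and 4 (1.64% of all) or conceptuses 2, 3 and 4 (5% of all) above the gap.

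**Figure D3:**
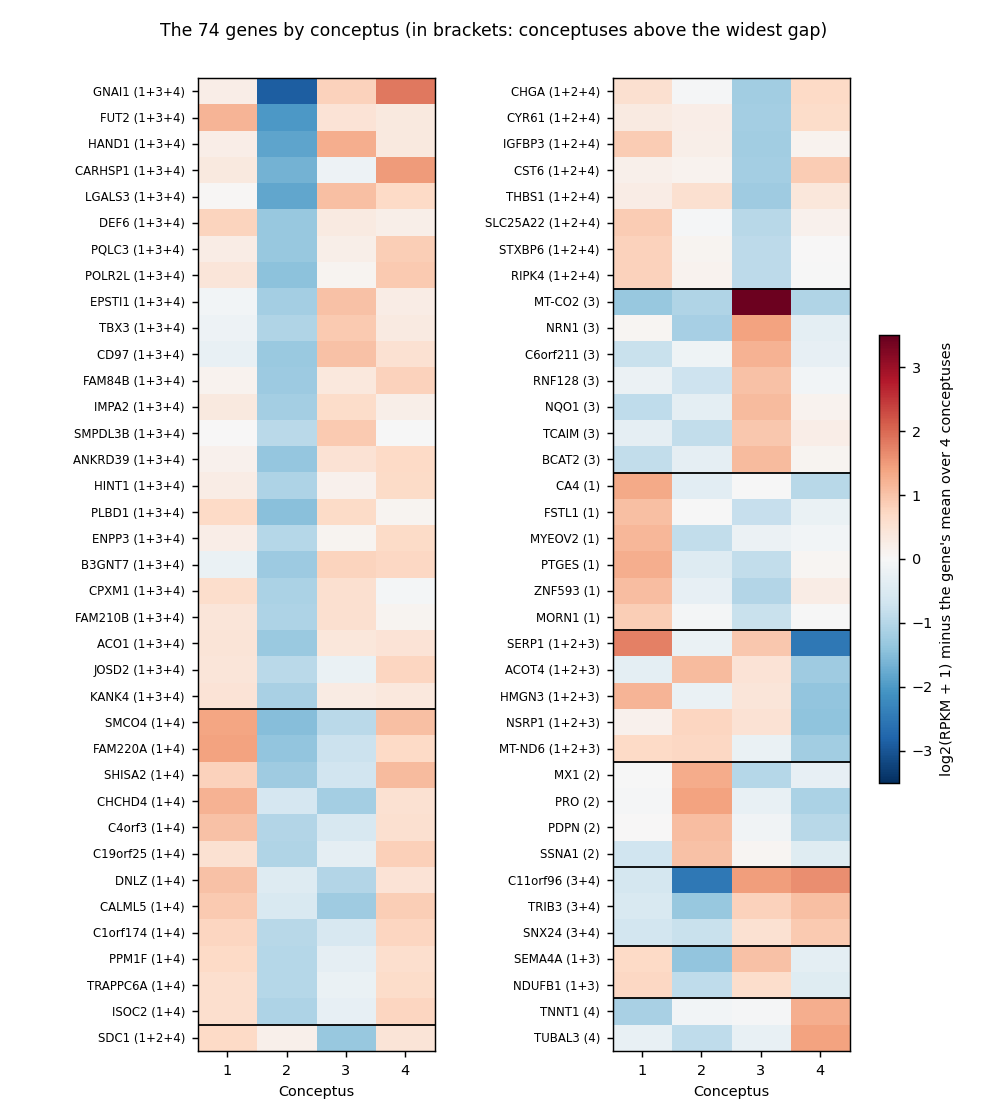
The 74 genes (rows) in conceptuses 1 to 4 (columns), coloured by log2(RPKM + 1) minus the gene's own mean over the 4 conceptuses, red above and blue below. Brackets give the conceptuses above the widest gap, and lines separate these arrangements. The first block on the left, 24 genes, has its deepest blue in conceptus 2.

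The widest ranges were set by conceptus 2 in most cases. GNAI1, the alpha subunit of an inhibitory G protein, had 12.03, 0.49, 18.2 and 38.45 RPKM, again in the order 1 to 4. Conceptus 2 lay far under the rest, and without it the ratio was 3.196. C11orf96, a gene with no role known here, was at 3.99, 0.34, 20.1 and 22.55 RPKM. Its ratio of 66.3 became 5.65 without conceptus 2, so conceptus 1 was also low. FUT2, a fucosyltransferase that builds the H antigen of mucosal secretions, was at 15.6, 0.8, 9.11 and 8.1 RPKM, with the other 3 libraries within 1.93 times of each other. For these 3 genes the lowest value is under 1 RPKM, where few reads may stand behind it.

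**Figure D4:**
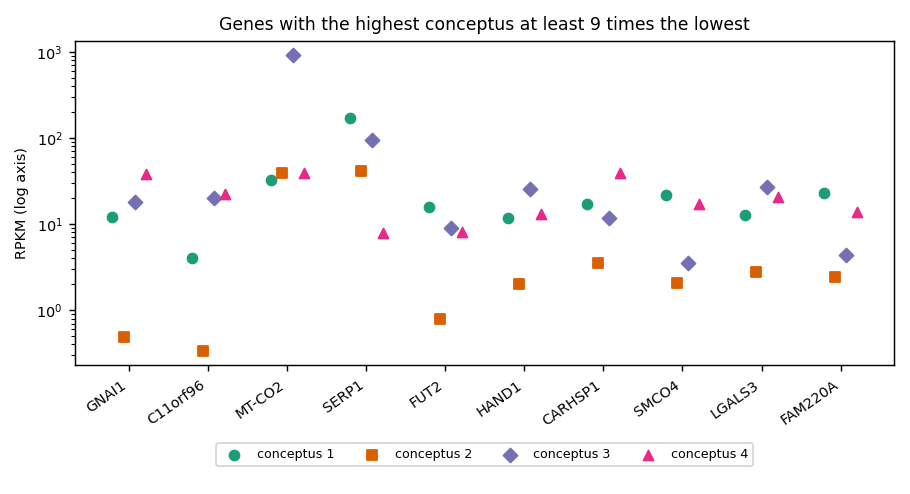
RPKM (y, log axis) in conceptuses 1 to 4 of the 10 genes whose highest conceptus is at least 9 times the lowest, in falling order of that ratio. Conceptus 2 (orange squares) is the lowest point of 8 of the 10. MT-CO2 is set by 1 high value in conceptus 3 and SERP1 by a low value in conceptus 4.

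Among secreted and cell-surface proteins, a class of 16 formed after the values were seen, 7 genes were lowest in conceptus 2 (31.5% of all 5364 genes), 7 in conceptus 3 (31.3% of all) and 2 in conceptus 4 (20.1% of all). LGALS3, galectin-3, a lectin that binds cell-surface sugars, was at 12.8, 2.78, 26.7 and 20.6 RPKM. CD97, an adhesion receptor coupled to G proteins, was at 15.9, 7.27, 39.85 and 28.3 RPKM. Both were lowest in conceptus 2 and highest in conceptus 3. SEMA4A, a membrane semaphorin, was at 18.5, 3.66, 23.8 and 8.53 RPKM, and NRN1, the membrane-anchored neuritin, at 13.1, 5.09, 35.1 and 9.72 RPKM. NRN1 stood out in conceptus 3, at 2.67 times the next library.

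Other genes of this class had a low value in conceptus 3 alone. IGFBP3, which binds insulin-like growth factors, was at 43.4, 26.9, 9.30 and 24.99 RPKM. CST6, cystatin E/M, an inhibitor of cysteine proteases, was at 31.4, 30.1, 11.7 and 52.5 RPKM. THBS1, the matrix glycoprotein thrombospondin 1, was at 9.76, 12.3, 2.78 and 10.9 RPKM. CYR61, a matricellular protein induced by serum and growth factors, was at 7.42, 6.94, 1.94 and 9.66 RPKM, and the heparan sulfate proteoglycan SDC1 at 8.07, 5.38, 1.23 and 6.74 RPKM. CHGA, a protein of secretory granules, was at 9.51, 5.93, 2.08 and 10.5 RPKM. In each of these 6 genes the lower of the other libraries was at least 2.58 times conceptus 3, and the other 3 libraries lay within 1.76 times of each other.

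Other surface and secreted genes were high in a single animal. PDPN, the mucin-type glycoprotein podoplanin, was at 24.7, 53.1, 22.1 and 11.9 RPKM and so highest in conceptus 2. CA4, a membrane-anchored carbonic anhydrase, was at 27.2, 7.83, 10.3 and 4.82 RPKM, and FSTL1, a secreted follistatin-like protein, at 10.8, 4.72, 2.29 and 3.86 RPKM. These last genes were both highest in conceptus 1. CPXM1, a secreted carboxypeptidase-like protein, SMPDL3B, a membrane-anchored phosphodiesterase, and the ectonucleotidase ENPP3 were low in conceptus 2, at 1.8 to 2.30 RPKM, against 4.73 to 9.89 RPKM in the other libraries.

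The other binding proteins and growth factor genes did not share the full range. Of the 14 genes at 5 RPKM or more in the list of growth factors and receptors, 2 were members, IGFBP3 and FSTL1, and the 12 others spanned 1.10 to 3.27 times. IGFBP1 was at 30.5, 37.9, 14.0 and 33.3 RPKM, also lowest in conceptus 3. In the list of matrix and proteolysis genes 2 of 22 were members, THBS1 and CST6, and the 20 others spanned 1.22 to 3.53 times, led by SPINT2 at 173 ± 29.7 RPKM (SD, n = 4). Of the list of endometrial genes IGFBP3 was the only member among 6 at this level. The trophoblast products list held 1 member of 7, CST6, and its highest gene TP-1, interferon tau, spanned 2.22 times.

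The class of mitochondrial genes held 8, with the mitochondrial enzyme BCAT2 placed among the small-molecule enzymes instead. MT-CO2, cytochrome c oxidase subunit 2, was at 32.6, 39.2, 906 and 39.15 RPKM: 3 libraries lay within 1.20 times of each other and conceptus 3 was 23.1 times the next. Its mean of 254 ± 434 RPKM (SD, n = 4) fell to 37.0 RPKM without conceptus 3. MT-ND6, the complex I subunit encoded on the opposite strand of the mitochondrial genome, was at 38.3, 39.4, 19.7 and 9.48 RPKM, and although the libraries were strand specific per the labels, use of strand in counting is not stated, so antisense reads cannot be told apart.

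The 8 other mitochondrially encoded genes at 5 RPKM or more were not highest in conceptus 3. In 7 of these 8 the highest value was in conceptus 2 (26.7% of all genes) and in 7 the lowest in conceptus 4 (20.1% of all), with ratios of 1.67 to 3.70. ND2 was at 74.2, 163, 85.5 and 47.9 RPKM, MT-ATP6 at 89.7, 179, 78.6 and 48.4 RPKM, and COX1 at 2066, 2154, 1806 and 1288 RPKM. MT-ND6 had its extremes in the same libraries, and MT-CO2 stood apart. Nuclear genomes hold copies of mitochondrial genes, and how reads shared with such copies were counted is not stated.

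**Figure D5:**
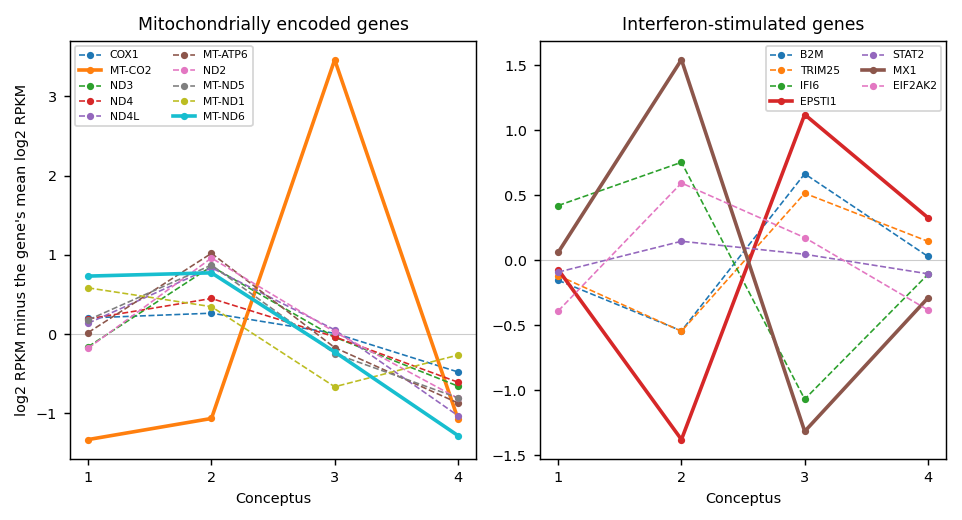
Mitochondrially encoded genes (left) and interferon-stimulated genes (right) with a mean of at least 5 RPKM: log2 RPKM minus the gene's own mean log2 RPKM (y) in each conceptus (x). Lines only join the points of 1 gene, thick for genes among the 74 and dashed for the others. MT-CO2 peaks in conceptus 3, where the 9 other mitochondrial genes lie near or under their means, and MX1 and EPSTI1 go opposite ways in conceptuses 2 and 3.

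Nuclear genes of mitochondrial proteins divided between patterns. CHCHD4, the oxidoreductase of protein import into the intermembrane space, was at 43.7, 11.98, 7.53 and 27.2 RPKM, and DNLZ, a partner of the mitochondrial HSP70, at 23.6, 7.88, 4.93 and 15.8 RPKM. Both were high in conceptuses 1 and 4. SLC25A22, a glutamate carrier, was at 15.5, 7.77, 3.56 and 8.92 RPKM, lowest in conceptus 3. TCAIM, at 4.46, 2.73, 11.9 and 6.94 RPKM, was highest in conceptus 3. FAM210B and the complex I subunit NDUFB1 were lowest in conceptus 2, at 1.96 and 2.14 RPKM against 3.36 to 8.59 RPKM elsewhere.

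Interferon-stimulated genes held 2 members of 7 at this level, and they moved in opposite ways. MX1, an antiviral GTPase, was at 4.21, 11.8, 1.62 and 3.30 RPKM, highest in conceptus 2 and lowest in conceptus 3. EPSTI1, an interferon-response gene first described in breast epithelium, was at 8.96, 3.62, 20.5 and 11.8 RPKM, lowest in conceptus 2 and highest in conceptus 3. The 5 other genes of the list spanned 1.19 to 3.54 times. IFI6 was at 16.5, 20.7, 5.86 and 11.4 RPKM, with its extremes where MX1 had them, and EIF2AK2, at 3.68, 7.28, 5.44 and 3.70 RPKM, was also highest in conceptus 2. B2M, at 336, 257, 594 and 382 RPKM, and TRIM25, at 40.1, 29.8, 62.3 and 48.2 RPKM, had their extremes where EPSTI1 had them. The genes of the list had no common direction between the conceptuses.

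Signalling and stress genes numbered 12, again a class formed after the values were seen. Conceptus 2 was the lowest library for 9 of them, beside 58.1% of the 74 and 31.5% of all genes. CALML5, a calmodulin-like calcium sensor known from differentiating epidermis, was the most abundant of the 74 genes, at 404, 149, 89.8 and 392.07 RPKM (mean 259 ± 163, SD, n = 4). Its values in conceptuses 1 and 4 were at least 2.64 times those in conceptuses 2 and 3. TRIB3, a pseudokinase induced by the stress factor ATF4, was at 7.88, 4.04, 21.3 and 25.5 RPKM. SHISA2, which holds back WNT and FGF receptors in the endoplasmic reticulum, was at 9.08, 1.46, 2.65 and 11.6 RPKM. DEF6 was at 10.6, 1.72, 7.46 and 6.80 RPKM.

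TRIB3 was the only member among 11 genes of the endoplasmic reticulum and amino acid stress list. ATF4 was at 277, 277, 382 and 330 RPKM, spanning 1.38 times, and ASNS, another ATF4 target, at 7.35, 5.63, 5.22 and 3.71 RPKM, lowest in conceptus 4. HERPUD1, at 126, 81.3, 168 and 252 RPKM, and CRELD2, at 177, 64.3, 110 and 195 RPKM, were lowest in conceptus 2 and highest in conceptus 4, as TRIB3 was. Of the 10 list genes besides TRIB3, 5 were highest in conceptus 4 (25.3% of all 5364 genes) and 5 were lowest in conceptus 2 (31.5% of all). The 10 others spanned 1.15 to 3.09 times, MANF being the highest at 533 ± 115 RPKM (SD, n = 4).

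RIPK4, a kinase of epidermal differentiation, was at 13.0, 7.62, 3.21 and 6.84 RPKM and had the most negative r with PTGS2 of the 74, -0.85. JOSD2, a deubiquitinase, HINT1, a nucleotide hydrolase, and PPM1F, a protein phosphatase, were each lowest in conceptus 2, at 2.00 to 2.37 RPKM, and spanned 4.19 to 4.59 times. RNF128, a ubiquitin ligase, was at 3.97, 2.47, 10.9 and 4.44 RPKM, high in conceptus 3 alone.

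Transcription and chromatin genes numbered 7 with those acting on RNA. HAND1, a basic helix-loop-helix factor required for trophoblast giant cells in mouse, was at 11.85, 2.04, 25.6 and 13.1 RPKM. TBX3, a T-box factor also needed by the mouse placenta, was at 3.88, 1.70, 9.41 and 5.94 RPKM. Both ranked the conceptuses alike, with conceptus 2 lowest, then 1, 4 and 3. HAND1 was the only member among 15 trophectoderm genes at 5 RPKM or more. The 14 others spanned 1.27 to 3.92 times, and 9 of these 14 were lowest in conceptus 2 (31.5% of all genes), 4 in conceptus 3 and 1 in conceptus 1, while 8 were highest in conceptus 1 (33.5% of all). Those lowest in conceptus 2 included GATA2 at 8.67, 2.21, 3.60 and 6.37 RPKM and CLDN6 at 240, 94.7, 155 and 235 RPKM. The summed trophectoderm list was lowest in conceptus 3, at 6734, 6474, 5729 and 9181 RPKM. KRT8 dominates that sum, at 5756, 5847, 4983 and 8256 RPKM, and is itself lowest in conceptus 3. The sum therefore does not describe the other genes of the list. The part of cell makeup in the low values of conceptus 2 was not tested. In whole conceptuses, fewer cells of a type and less RNA per cell cannot be told apart.

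CARHSP1, an RNA-binding protein with a cold-shock domain, was at 17.3, 3.57, 11.6 and 39.1 RPKM, and POLR2L, a small subunit shared by the nuclear RNA polymerases, at 20.6, 4.97, 16.2 and 29.4 RPKM. These genes were both lowest in conceptus 2 and highest in conceptus 4. ZNF593, a small zinc finger protein, was at 71.6, 27.1, 16.1 and 40.2 RPKM. Conceptus 4 was the low library for HMGN3, a nucleosome-binding protein, at 40.8, 14.6, 24.0 and 6.15 RPKM, and for NSRP1, a splicing regulator of nuclear speckles, at 12.4, 19.5, 16.3 and 3.59 RPKM. HMGN genes have many processed copies, so reads of HMGN3 may be shared.

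Enzymes of lipids, sugars and small molecules numbered 10. PTGES, which makes prostaglandin E2 from the product of PTGS2, was at 138, 41.2, 30.45 and 58.9 RPKM. It was highest in conceptus 1 and lowest in conceptus 3, where PTGS2 was lowest and highest. The 5 other genes besides PTGS2 at 5 RPKM or more in the prostaglandin list spanned 1.54 to 3.23 times, among them PTGIS at 88.9, 59.7, 48.8 and 105 RPKM and the transporter SLCO2A1 at 42.3, 20.3, 65.5 and 45.7 RPKM.

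PLBD1, a phospholipase B domain protein, was at 146, 31.9, 145 and 96.8 RPKM, low in conceptus 2 alone. ACO1, cytosolic aconitase and an iron regulatory protein, was at 12.6, 3.02, 11.98 and 12.7 RPKM, where 3 libraries lay within 1.06 times of each other and conceptus 2 stood apart. B3GNT7, which extends keratan sulfate chains, was at 26.75, 12.55, 55.5 and 53.1 RPKM. IMPA2, an inositol monophosphatase, was at 6.55, 1.61, 8.27 and 5.90 RPKM, and ISOC2 at 17.2, 4.71, 8.87 and 19.3 RPKM. In these genes too the lowest library was conceptus 2.

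BCAT2, the mitochondrial branched-chain aminotransferase, at 8.32, 12.6, 35.9 and 17.1 RPKM, and NQO1, a quinone reductase, at 7.18, 10.75, 31.5 and 15.3 RPKM, kept the same order of conceptuses, with conceptus 3 at 2.10 and 2.06 times the next library. NQO1 was the only member among 20 antioxidant genes. The 19 others spanned 1.13 to 3.64 times, PRDX5 being the highest at 1709 ± 358 RPKM (SD, n = 4), and 6 of these 19 were highest in conceptus 3 (14.5% of all genes), 5 in conceptus 2 and 4 each in conceptuses 1 and 4. The 6 included CAT, catalase, at 203, 206, 525 and 280 RPKM and GPX2 at 3.16, 3.40, 11.5 and 7.05 RPKM. ACOT4, a peroxisomal acyl-CoA thioesterase, was at 3.32, 10.7, 6.70 and 1.33 RPKM, highest in conceptus 2.

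Genes of the endoplasmic reticulum and of vesicle traffic numbered 6. SERP1, which steadies proteins at the translocon under stress, was at 169, 41.4, 95.3 and 7.84 RPKM, the widest range of a gene lowest in conceptus 4. Its ratio of 21.5 was 4.08 without conceptus 4 and 12.2 without conceptus 1. C4orf3, a small membrane protein of the endoplasmic reticulum, was at 16.8, 3.29, 4.94 and 11.9 RPKM, and TRAPPC6A, of the vesicle-tethering TRAPP complex, at 7.96, 2.02, 4.09 and 8.34 RPKM, both high in conceptuses 1 and 4. PQLC3 was at 9.18, 2.42, 8.80 and 14.4 RPKM. STXBP6, a SNARE-binding protein, was at 11.8, 6.86, 2.90 and 6.49 RPKM, and the sorting nexin SNX24 at 2.48, 2.17, 6.89 and 9.33 RPKM, the closest of the 74 to PTGS2.

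The 4 cytoskeletal genes were TNNT1, slow skeletal troponin T, at 1.40, 3.97, 4.17 and 11.8 RPKM, TUBAL3, a tubulin alpha-like gene, at 4.83, 2.76, 4.77 and 17.5 RPKM, KANK4, at 7.79, 1.91, 6.74 and 7.17 RPKM, and SSNA1, a microtubule-associated protein, at 2.37, 10.1, 4.73 and 3.03 RPKM. TNNT1 and TUBAL3 were the 2 genes for which conceptus 4 alone lay above the widest gap. KANK4 was low in conceptus 2 alone and SSNA1 was high there.

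The other 11 genes were placed in a class called little characterised, which was also formed after the values were seen. PRO, described in the table only as a protease, was at 145, 403, 127 and 69.2 RPKM, highest in conceptus 2. SMCO4, a small membrane protein, at 21.5, 2.07, 3.54 and 17.15 RPKM, and FAM220A, at 23.0, 2.44, 4.35 and 13.7 RPKM, had conceptuses 1 and 4 well above the other pair, by at least 3.14 times. C19orf25, at 8.91, 2.32, 4.50 and 11.3 RPKM, and C1orf174, at 9.10, 2.10, 3.12 and 9.20 RPKM, were split alike. Beside these genes stood the summed list of endometrial markers, at 533, 311, 262 and 425 RPKM, likewise higher in conceptuses 1 and 4. The mesoderm list, at 278, 190, 160 and 207 RPKM, the trophectoderm list, and the blood and endothelium list also summed higher there. The other cell type lists did not. Conceptuses 1 and 4 lay above the widest gap in 18.1% of all genes. FXYD4 made up much of the endometrial sum, at 335, 123, 138 and 261 RPKM. Of the 5 genes of the list at 5 RPKM or more besides IGFBP3, 2 were highest in conceptus 1 (33.5% of all genes). The 3 others were highest in conceptus 2 (26.7% of all), among them LGALS15, at 90.4, 97.5, 87.2 and 81.0 RPKM. The part of endometrial material in the result was not tested.

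ANKRD39, at 18.7, 5.89, 23.9 and 27.55 RPKM, and FAM84B, at 8.78, 2.76, 10.6 and 14.7 RPKM, were low in conceptus 2. MYEOV2, a small subunit of the COP9 signalosome, at 21.95, 4.71, 7.93 and 8.63 RPKM, and MORN1, at 9.74, 4.63, 2.42 and 4.84 RPKM, were high in conceptus 1. C6orf211 was at 3.62, 6.17, 17.5 and 5.59 RPKM, high in conceptus 3.

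Of 32 gene lists of cell types and pathways, 12 held at least 1 of the 74 genes, and 14 of the 74 were in a list. The 20 lists with none included cytosolic ribosomal proteins (28 genes at 5 RPKM or more), cell division (26), keratins and junctions (23), sterol synthesis (23), glycolysis (17), heat shock proteins (16) and the extraembryonic endoderm list (13). The mesoderm list held 1 member of 5, TBX3, with TAGLN highest at 136 ± 46.6 RPKM, and the immediate early list 1 of 6, CYR61, with KLF6 highest at 16.2 ± 4.10 RPKM (SD, n = 4 each). The members made up 1.38% of all genes at 5 RPKM or more, and with so few in each list nothing particular to a list is read from these counts.

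Genome neighbours could be looked up for part of the 74 genes. By symbol, and in RefSeq's genes for another assembly, ARS-UI_Ramb_v3.0, 58 of the 74 were found, and no pair of them was adjacent among protein-coding genes. FUT2 and BCAT2 had 5 genes between them, as did POLR2L and SLC25A22, and NDUFB1 and CHGA had 6. The closest pair, MX1 and RIPK4, had 2 genes between them, and differed in pattern, MX1 being highest in conceptus 2 and RIPK4 in conceptus 1.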

How the data were processed

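Values are RPKM for 25197 features in 4 libraries, as deposited by the authors. Only the name of a second table, a subset holding equal values and not used here, states that unit. Strand-specific Ion Proton libraries were made from RNA depleted of ribosomal RNA, per the labels' protocols. Oar_v3.1 is the build that the submitters' processing notes name. Aligner, counter, annotation and strand in counting were recorded as not given in the sources used here. Replicates were numbered in accession order. Symbols are those of the table, and no symbol occurs more than once.

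The rule was applied with Python 3.11.15, numpy 2.4.6 and pandas 2.3.3, with a pseudocount of 1 for r. It was tested on simulated data. The members, functional classes and lists were chosen with earlier results of these data known, and the classes after the values were seen. Full values were planned for the 20 widest and 20 most abundant members and those in a list, and are given for nearly all of the 74. The set has 1 group and no contrast, so no comparison was tested, and a p-value would repeat the selection. Single libraries far from the rest were marked by Dixon's ratio, as a description. Protein and promoter sequences were not used here. Alternatives were 2 scalings, other limits, pseudocounts and filters, and leaving out each conceptus.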

Additional observations from a re-analysis of the deposited data

Results flagged for a closer look

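In 95 sets of 4 values (the 74 genes, the genes at the limits of the rule and the summed cell type lists), the distance of the highest or lowest library to the next one was divided by the span of all 4, in RPKM. It was above Dixon's 95% limit for 4 samples in 4 sets. That limit passes about 1 in 20 sets of unselected values by chance, a rate that does not hold for genes chosen for a wide range, so the 4 are given as a description. In conceptus 3 MT-CO2 reached 905.76 RPKM, with the other libraries at 32.6 to 39.2 RPKM. In conceptus 2 ACO1 had 3.02 RPKM, with the other libraries at 11.98 to 12.7 RPKM. In conceptus 4 TUBAL3 had 17.52 RPKM, with the others at 2.76 to 4.83 RPKM. TTYH3, just outside the set with a mean of 4.89 RPKM, had 11.25 RPKM in conceptus 1 and 2.33 to 3.46 RPKM elsewhere.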

How the results depend on the processing

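The number of genes meeting the rule was 74 with a pseudocount of 0.1, 69 with r under 0.9, 81 with no limit on r, 71 with 1 RPKM or more in every library, 65 with libraries scaled by their median ratio and 63 with libraries scaled to equal sums. It was 278 with a mean of at least 1 RPKM, 36 with at least 10, 190 with a ratio of 3, 34 with a ratio of 5, 42 with a range of 2 on log2(RPKM + 1), and 141 with features that have no symbol included. Leaving out 1 conceptus gave 29 to 48. The factors by which the median-ratio scaling divided the libraries were -0.10 to 0.07 on the log2 scale. Under both scalings 55 of the 74 spanned 4 times. NDUFB1, MORN1, RIPK4, STXBP6, ISOC2, JOSD2, PPM1F, KANK4 and TRAPPC6A fell under 4 in each. In all, 13 fell under 4 by the median ratio and 15 by equal sums. CALML5, at 3.98, PTGES, at 3.998, and ZNF593, at 3.94, did so by the median ratio only.

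Conceptus 2 held the lowest value of 58.5% of the genes under the median-ratio scaling, against 29.1% of all, and of 49.2% under equal sums, against 24.4% of all. Under the median-ratio scaling 21.5% were highest in conceptus 1 and 35.4% in conceptus 3, against 24.3% and 21.4% of all. With a ratio of 5, 11.8% were lowest in conceptus 3, against 31.3% of all. With a mean of 10, 5.56% had conceptus 3 alone below the gap, and the share of all genes at that mean was not counted. Leaving out 1 other conceptus, the share highest was 34.1% to 69% in conceptus 1, 6.25% to 21.9% in conceptus 2, 13.8% to 33.3% in conceptus 3 and 17.2% to 62.5% in conceptus 4, and the share lowest was 2.08% to 13.8%, 59.4% to 75%, 18.8% to 69% and 17.2% to 21.9%. The shares with 1 conceptus left out are over 3 libraries in place of 4 and so are larger by default. The same shares over all genes were not counted. The cause of these shifts was not tested. No paired analysis was possible because there is 1 group. Absolute depth is unknown, so values near 1 RPKM carry an unknown counting error.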
